A study of Mus musculus with 8 samples.

Results

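The levels of 10 genes of prostaglandin and leukotriene metabolism, chosen by name, were compared between macrophages given human and rat islet amyloid polypeptide. Every array probe annotated with one of the 10 symbols was taken, which gave 13 of 25697 probes and 9 of the 16593 genes named on the array. No probe is named for Ptgs1 in the annotation used here. The cells were macrophages grown from bone marrow of C57BL/6 mice, and RNA was hybridised to 8 single-colour Illumina bead arrays. Islet amyloid polypeptide (IAPP, amylin) is a beta cell hormone whose human form aggregates into amyloid, while the rat form does not readily do so. Rat IAPP was given to 4 wells as the control and human IAPP to 4 wells, each at 15 µM for 12 hours. One protocol field writes this dose in millimolar; the sample titles and the design text write micromolar. Both groups had been grown for 7 days with 15% medium conditioned by L929 fibroblasts, which supplies the growth factor macrophages need, and then kept without it for 12 hours. No untreated well is among the samples, so each difference is relative to rat IAPP, and peptide sequence and aggregation cannot be told apart. The labels name no animals or separate experiments, so the p-values weigh only how the wells scattered, and that scatter may be technical.

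Prostaglandins and leukotrienes are lipid signals made from arachidonic acid that phospholipases release from membranes. Cyclooxygenases (Ptgs1, Ptgs2) turn it into prostaglandin H2, from which Ptges makes prostaglandin E2. Prostaglandin E2 signals through receptors such as those encoded by Ptger2 and Ptger4 and is inactivated by the dehydrogenase encoded by Hpgd. In the other branch Alox5, with its helper Alox5ap, makes leukotriene A4, which Lta4h converts to leukotriene B4 and Ltc4s to leukotriene C4. Macrophages are an established source of both kinds of lipid, and transcript levels do not measure the lipids themselves.

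Of the 10 genes, 7 passed the filter on dim probes (a detection p-value below 0.05 on 4 or more arrays). Among these 7, Ptges rose with human IAPP, 5 fell (Hpgd, Ptger2, Alox5, Alox5ap and Ltc4s) and Lta4h did not pass the test. These 6 calls stand against a background in which 55.4% of 7809 tested genes were called, 23.4% higher and 32% lower (limma, Benjamini-Hochberg adjusted p under 0.05). All 6 called genes had groups that did not overlap, as did 51.3% of all tested genes. By probes, 8 of 9 tested were called (2 higher, 6 lower) and 8 did not overlap, beside 54.4% of 11451 tested probes called (24.5% higher, 29.9% lower) and 49.9% not overlapping. Calls were this common over the whole array, so the sizes of the differences are given with each gene. The median log2 difference of the 7 genes was -0.66, beside -0.06 for all tested genes. Ptgs2 and Ptger4 missed the filter and are described by their values.

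The upstream sequences of Ptges and Hpgd are shown because these genes gave the largest rise and the largest fall among the 10. Each is the 250 bases before the start given in a RefSeq promoter table on GRCm38.p6, and capitals mark the GC box GGGCGG and the EGR core GTGGGCG on either strand, motifs that overlap each other here. The Ptges sequence is chr2:30903298-30903547 on the minus strand and the Hpgd sequence is chr8:56294302-56294551 on the plus strand. For Hpgd this start is the outer end of the annotated gene, whereas for Ptges it lies 27723 bases inside the annotated span, so the Ptges window does not lie before the whole annotated gene. The same holds for Ptgs1, which is included in the motif counts below and whose start lies 13684 bases inside its annotated span.
Ptges: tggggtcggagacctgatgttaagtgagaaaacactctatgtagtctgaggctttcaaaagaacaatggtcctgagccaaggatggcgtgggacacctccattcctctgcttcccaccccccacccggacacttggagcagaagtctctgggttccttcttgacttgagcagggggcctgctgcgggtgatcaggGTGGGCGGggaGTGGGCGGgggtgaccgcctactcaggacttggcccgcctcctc
Hpgd: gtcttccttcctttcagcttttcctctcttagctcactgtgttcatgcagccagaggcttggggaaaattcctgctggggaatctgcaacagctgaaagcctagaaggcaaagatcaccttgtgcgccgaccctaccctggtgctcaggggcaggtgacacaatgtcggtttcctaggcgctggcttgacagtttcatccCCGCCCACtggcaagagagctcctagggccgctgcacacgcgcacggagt
Ptges held 2 EGR cores, the nearer ending 37 bases before the start, and Hpgd held 1 on the opposite strand, ending 42 bases before it. The gene that rose and the gene that fell thus both carried this motif, which was found in 2 of the 9 genes with an entry and in 7.02% of 32851 windows of the same length. The GC box was found in 5 of the 9 genes and in 32.7% of all windows. On either strand, 0 of the 9 held the TATA box (letters TATAAA, found in 12.4% of all windows), the E box (letters CACGTG, found in 6.02%), the cyclic AMP element (letters TGACGTCA, found in 1.55%), the AP-1 site (letters TGANTCA, found in 6.75%) or the kappa B motif (found in 7.25%). These matches are a description of letters in one window. Alox5ap had no entry.

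Ptges, the inducible terminal synthase of prostaglandin E2, was higher in all 4 human wells than in any rat well. On its brighter probe the log2 intensity was 8.53, 8.02, 8.15 and 7.998 in rat wells 1 to 4 and 9.56, 10.24, 10.17 and 9.98 in human wells 1 to 4. Human well 1 was the lowest of its group, and the gap to the highest rat well was still about a log2 unit. The group means were 8.18 ± 0.25 (SD, n = 4) and 9.99 ± 0.31 (SD, n = 4). The log2 difference was 1.81 (SE 0.17, limma adjusted p = 2.23e-05), a 3.51-fold rise that 140 of 7809 tested genes, Ptges included, reached or passed. A second, dimmer probe gave 1.44 (SE 0.18, limma adjusted p = 0.00015), detected on all 8 arrays and again without overlap. With the background kept in the signal the brighter probe gave 1.16 and the dimmer 0.48, both still called.

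**Figure D1:**
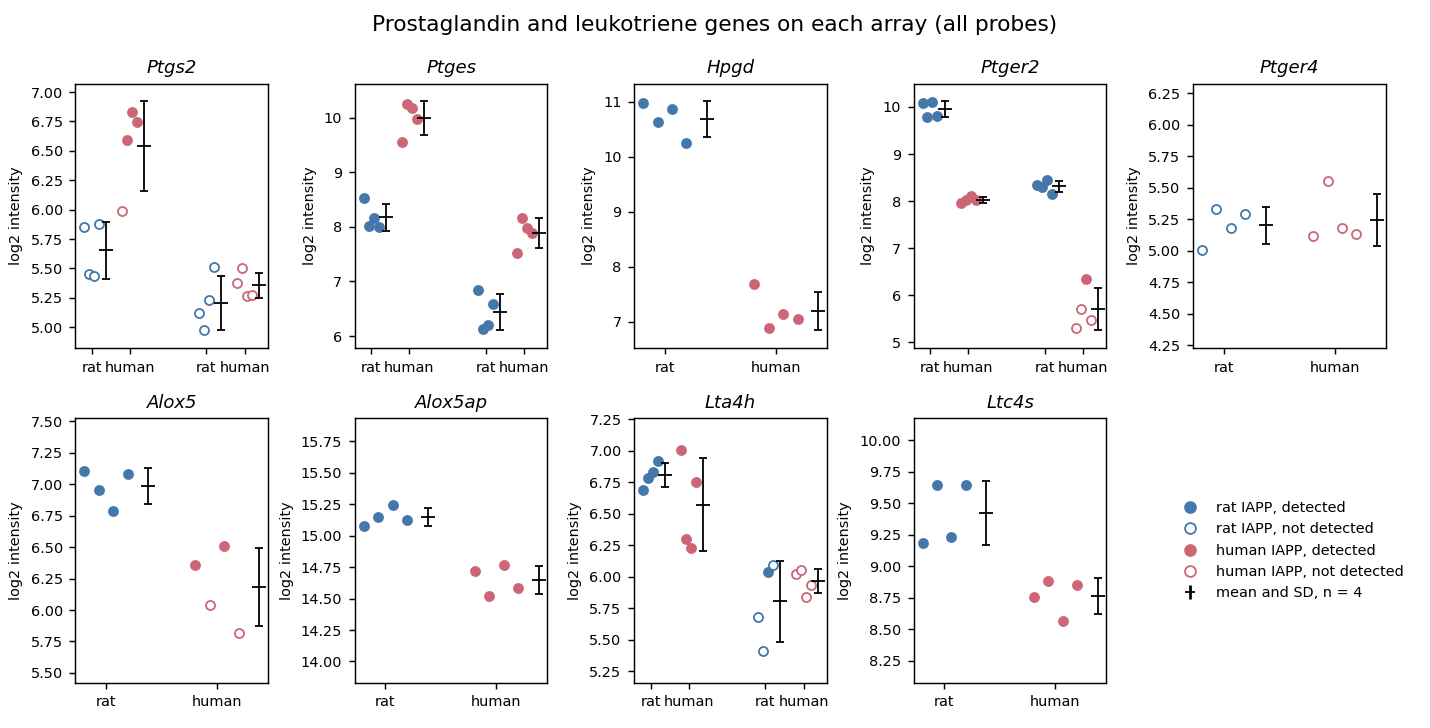
Log2 intensity after background correction and quantile normalisation (vertical axes, with a different range in each panel) for the 13 probes of 9 genes. Points are single arrays, open where the probe was not detected, and bars give the mean and SD of 4 arrays, with the probe that is brighter in human wells on the left where there are 2. Rat and human points do not overlap for Ptges, Hpgd, Ptger2, Alox5, Alox5ap, Ltc4s and 1 of the Ptgs2 probes.

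Ptgs2, the inducible cyclooxygenase gene, lay at the edge of detection. Its better probe was detected on 0 of 4 rat arrays and 3 of 4 human arrays. The log2 intensity was 5.85, 5.46, 5.44 and 5.88 with rat IAPP and 5.99, 6.59, 6.83 and 6.75 with human IAPP. Human well 1, the undetected one, lay only just above the highest rat well. The rise can only be bounded, at 1.38-fold or 0.47 log2 units in the reported processing. The deposited signals were 344, 347, 360 and 351 units with rat IAPP and 359, 367, 389 and 358 with human IAPP. Before any correction these signals overlapped, so the bound depends on the background correction and normalisation. The bound sets the human mean against the rat mean after raising each rat value to the dimmest detected probe of its array where it lay lower. When all 25697 probes were fitted without a filter, the difference was 0.89 (SE 0.19, limma adjusted p = 0.00523). The other Ptgs2 probe was undetected on all 8 arrays. Ptges therefore rose from a level that was measured in both groups. Ptgs2 was detected only in 3 of 4 human wells and only by its better probe.

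Hpgd, the enzyme that starts the breakdown of prostaglandin E2, showed the largest fall among the 10 genes. Its log2 intensity was 10.98, 10.63, 10.88 and 10.26 in rat wells 1 to 4 and 7.69, 6.89, 7.14 and 7.04 in human wells 1 to 4. Rat well 4 was the lowest of the rat group and human well 1 the highest of the human group, and both still stood more than 2 log2 units apart. The group means were 10.69 ± 0.32 (SD, n = 4) and 7.19 ± 0.35 (SD, n = 4). The difference was -3.49 (SE 0.20, limma adjusted p = 1.05e-06), which is 11.3-fold lower. Only 3 of 7809 genes, Hpgd included, were called lower with a fall of this size or more (0.0384%). The deposited signal before any correction was 2672, 2117, 3423 and 1241 units with rat IAPP and 476, 383, 415 and 374 with human IAPP. The probe remained detected on all 8 arrays, but human signals lay close to the level of undetected probes, so the fold depends on the background correction. It was -2.03 on the log2 scale with the authors' rescaled values, which keep the background.

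Rat wells 1 to 3 had a higher mean signal than the other 5, with 1523 to 1967 units against 1144 to 1368 on human arrays and 1180 on rat array 4. The median signal did not separate them, with 345 units on rat array 1 and 352 on human array 1. Against rat array 4 alone, an alternative added after seeing the data in which this single array is assumed to vary like the human ones, Hpgd differed by -3.03 and Ptges by 1.99. Ptger2 differed by -1.78, Alox5ap by -0.47 and Ltc4s by -0.89, and all 5 stayed called, while Alox5 and the dimmer Ptger2 probe missed the filter in that setting.

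Set against its own rat mean, the change of Ptges exceeded that of Hpgd by 4.37, 5.86, 5.54 and 5.45 log2 units in human wells 1 to 4. In rat wells the same quantity lay between -0.21 and 0.25. Both genes were picked as the largest rise and the largest fall, so this quantity adds only how evenly the human wells showed it, with well 1 the lowest. Fewer cells of a type and less RNA per cell cannot be told apart in these bulk samples.

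Of the prostaglandin E2 receptor genes, Ptger2, which encodes the EP2 receptor that raises cyclic AMP, fell on both of its probes. The log2 intensity of the brighter probe was 10.09, 9.80, 10.10 and 9.81 in rat wells and 7.96, 8.02, 8.11 and 8.03 in human wells. The human wells lay close together and far below every rat well. The difference was -1.92 (SE 0.095, n = 4 per group, limma adjusted p = 4.12e-07), a 3.79-fold fall, and 30 of 7809 genes, Ptger2 included, had a difference this low or lower. The second probe fell by 2.61 on the log2 scale (SE 0.20, limma adjusted p = 5.79e-06) and was detected on all 4 rat arrays but only on human array 3. The rat arrays alone sufficed for it to pass the filter, so its call is not separate support. With the authors' rescaled values the 2 probes gave -1.14 and -0.81. Ptger4, which encodes the EP4 receptor, also coupled to cyclic AMP, was undetected on all 8 arrays, with group means of 5.20 ± 0.15 and 5.24 ± 0.21 (SD, n = 4), so no fold is given.

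Of the 4 tested leukotriene synthesis genes 3 fell, by less than Hpgd and Ptger2, and Lta4h was not called. Alox5, the 5-lipoxygenase gene, had a log2 intensity of 7.10, 6.96, 6.79 and 7.08 with rat IAPP and 6.35, 6.04, 6.51 and 5.82 with human IAPP, where human arrays 2 and 4 did not detect it. Its difference was -0.80 (SE 0.15, limma adjusted p = 0.00154), or 1.74-fold. It shrank to -0.17 with the authors' rescaled values and -0.21 without background correction, and stayed called in both.

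Alox5ap, which encodes the protein that presents arachidonic acid to 5-lipoxygenase, was bright on every array. Its log2 intensity was 15.07, 15.15, 15.24 and 15.12 with rat IAPP and 14.72, 14.52, 14.76 and 14.58 with human IAPP. The groups were narrow and did not overlap. The difference was -0.50 (SE 0.081, limma adjusted p = 0.000673), a 1.41-fold fall, and 19.0% of tested genes had a difference this low or lower. It was -0.19 with the authors' rescaled values (limma adjusted p = 0.0339). No deposited Alox5ap signal reached 60000 units, the level treated as near the scanner ceiling.

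Ltc4s, the leukotriene C4 synthase gene, had a log2 intensity of 9.18, 9.64, 9.23 and 9.65 with rat IAPP and 8.75, 8.88, 8.57 and 8.85 with human IAPP. Rat wells 1 and 3 lay nearest to the human wells without reaching them. The difference was -0.66 (SE 0.13, limma adjusted p = 0.00224), a 1.58-fold fall, and ranged from -1.10 with median scaling to -0.39 with the authors' rescaled values.

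Lta4h, the gene of leukotriene A4 hydrolase, was the tested gene without a call. Its log2 intensity was 6.69, 6.78, 6.83 and 6.92 with rat IAPP and 7.00, 6.30, 6.23 and 6.75 with human IAPP. Human well 1 was the highest of all 8 wells while wells 2 and 3 were the lowest, so the groups overlapped. The difference was -0.24 (SE 0.17, limma adjusted p = 0.253), and it became -0.39 (limma adjusted p = 0.0421) when human replicate 1 was left out. A second Lta4h probe was detected on rat array 3 alone and was not tested.

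**Figure D2:**
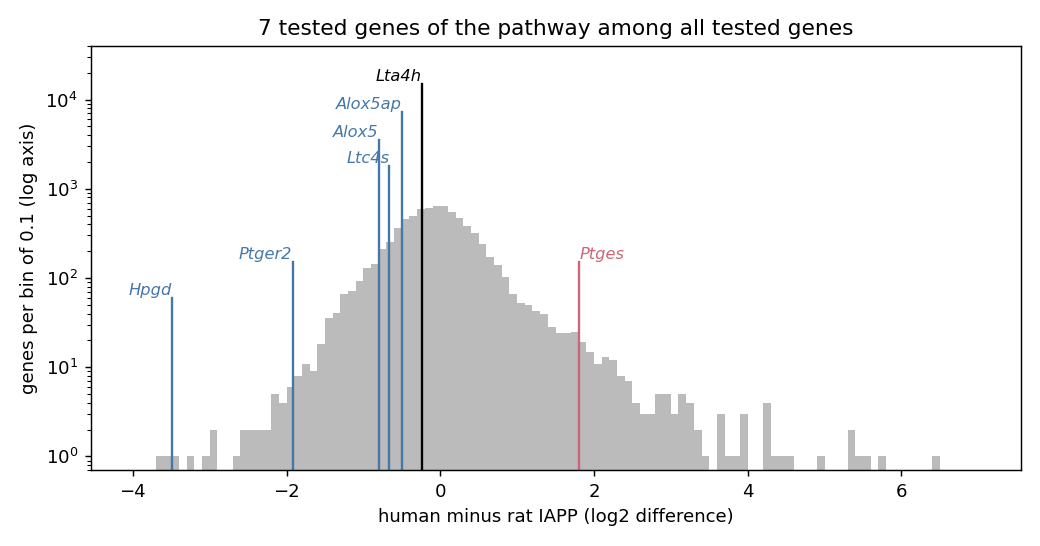
Histogram of the log2 difference of human minus rat IAPP over 7809 tested genes (horizontal axis, bins of 0.1; vertical axis, genes per bin on a log axis), with lines at the 7 tested genes, red where called higher, blue where called lower and black where not called; line heights only separate the names. Hpgd stands at -3.49 in the far lower tail, Ptger2 at -1.92 and Ptges at 1.81, while Alox5, Ltc4s, Alox5ap and Lta4h lie within the body of the distribution.

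The genes with profiles most like the largest rise and the largest fall were found by the root mean square difference over the 8 arrays of log2 values centred on each probe's rat mean. For Ptges these were Smcr8 (0.14), Dusp16 (0.15) and Itgav (0.17), where Smcr8 was undetected on all rat arrays. For Hpgd they were Angptl4 (0.32), Slc46a3 (0.34) and Bmf (0.36), where Bmf was undetected on all human arrays. Profiles of 8 arrays in 2 groups are likened mostly by the size of the group difference.

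Other genes of arachidonic acid metabolism were taken from lists of 68 names, of which 60 had a probe and 32 were tested. Of these 32, 6 rose and 15 fell, 18.8% and 46.9%, beside 23.4% and 32% of all tested genes. Their median log2 difference was -0.23, beside -0.06 for all. The split moved with the processing. Together with the genes known to respond to cyclic AMP, the wider lists gave 10 rises and 16 falls of 40, but 3 rises and 19 falls with median scaling, which lowered the median of all genes to -0.40, and 16 rises and 15 falls with the authors' rescaled values, which differ in both background and scaling. The 3 rises that median scaling left were Acsl4, Dusp1 and Crem. Sizes moved as well. With the authors' rescaled values the differences were -0.21 for Ptges2, -0.24 for Ptgr2, -0.37 for Mgst1, -0.37 for Cyp4f16 and 0.22 for Slco3a1, and with median scaling they were -0.79 for Tbxas1, -1.06 for Ptgr2, -1.12 for Ephx1, -1.07 for Cyp4f16 and -1.03 for Cysltr1, all nearer to or farther from 0 by over 1.5 times than the values given below. Each of these 10 values was called in its setting.

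Among genes that release or re-store arachidonic acid, 3 of 8 rose (Acsl4, Pla2g12a and Acsl3) and 2 fell (Daglb and Pla2g7). Pla2g4a, the cytosolic phospholipase A2 gene, was undetected on all 8 arrays. Acsl4, which encodes an acyl-CoA synthetase with a preference for arachidonic acid, rose 2.57-fold (log2 difference 1.36, SE 0.092, limma adjusted p = 2.75e-06), from 8.93, 9.11, 8.91 and 9.15 in rat wells to 10.27, 10.31, 10.51 and 10.46 in human wells, and 2 further probes also rose, by 1.28 and 1.40. The secreted phospholipase gene Pla2g12a rose 1.54-fold (limma adjusted p = 0.000249), a call lost with median scaling (adjusted p = 0.454), as was that of Acsl3 (adjusted p = 0.944). Daglb, a diacylglycerol lipase gene, fell by 0.86 on the log2 scale (limma adjusted p = 0.000103), while its second probe gave -0.27 and was not called.

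Of the other prostanoid synthase genes, 0 of 5 rose and 2 fell. Ptges2, a second prostaglandin E synthase gene that human arrays 2 and 3 did not detect, fell by 0.83 (SE 0.27, limma adjusted p = 0.027), and Tbxas1, the thromboxane synthase gene, by 0.38 (SE 0.12, limma adjusted p = 0.0224). The wells overlapped for both, though a second, dimmer Tbxas1 probe fell by 0.38 without overlap. Leaving out any of 3 single arrays ended each call: rat array 1, human array 2 or human array 3 for Ptges2 (adjusted p from 0.067 to 0.0715), and rat array 2, human array 1 or human array 2 for Tbxas1 (0.056 to 0.0608). Prxl2b, which encodes a prostamide and prostaglandin F synthase, differed by -0.34 (limma adjusted p = 0.0531).

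Of 6 genes for reductases, transporters and the glutathione transferase Mgst1, 4 fell (Ptgr2, Mgst1 and the carbonyl reductase genes Cbr1 and Cbr3) and 1 rose, though Cbr1 was not called with cyclic loess (adjusted p = 0.112) or in the authors' rescaled values (0.0635). Ptgr2, which encodes a reductase of the keto-prostaglandins that the Hpgd enzyme makes, fell by 0.66 (SE 0.11, limma adjusted p = 0.000772), and Mgst1 by 0.62 (SE 0.077, limma adjusted p = 0.000131). The transporter gene Slco3a1 rose 1.55-fold (limma adjusted p = 0.0006), a call lost with median scaling (adjusted p = 0.277).

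Of the other prostanoid receptor genes 2 were tested and 1 rose. Ptgir, which encodes the prostacyclin receptor and like Ptger2 signals through cyclic AMP, had a log2 intensity of 9.25, 9.20, 9.40 and 9.33 with rat IAPP and 10.21, 10.25, 10.24 and 10.10 with human IAPP. It rose 1.87-fold (log2 difference 0.90, SE 0.076, limma adjusted p = 1.17e-05), and the call was lost with median scaling (0.48, adjusted p = 0.0814). The receptor genes Ptger2 and Ptgir thus moved in opposite directions in the reported values. Tbxa2r, the thromboxane receptor gene, differed by -0.12 (limma adjusted p = 0.563).

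**Figure D3:**
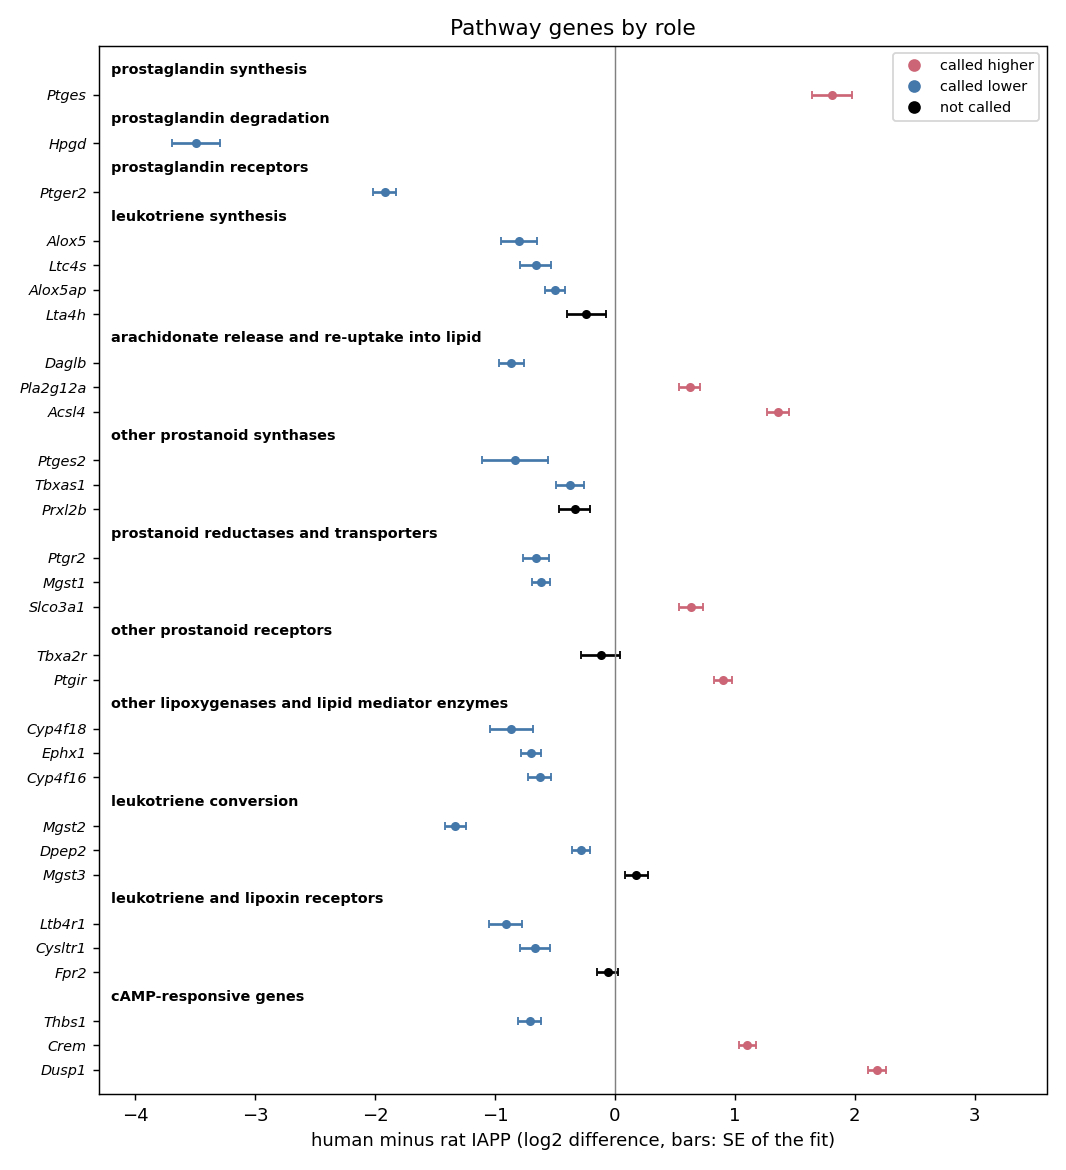
Log2 difference of human minus rat IAPP (horizontal axis) with the SE of the fit as bars, for 7 genes of the chosen set and up to 3 genes with the smallest p in each wider list, grouped by role. Dusp1, Ptges, Acsl4, Crem and Ptgir lie farthest right of 0, and Hpgd, Ptger2 and Mgst2 lie farthest left. The point of Ltb4r1 is a fitted value for a gene undetected in all human wells.

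On the leukotriene side, 2 of 3 tested conversion genes fell and 0 rose. Mgst2, a glutathione transferase gene whose product can also make leukotriene C4, fell by 1.33 (SE 0.087, limma adjusted p = 2.31e-06), from 12.59, 12.71, 12.40 and 12.57 in rat wells to 11.26, 11.15, 11.34 and 11.19 in human wells. The groups lay far apart, and the fall was 2.52-fold beside the 1.58-fold fall of Ltc4s. Dpep2, which encodes a dipeptidase that converts leukotriene D4, fell by 0.28 (SE 0.072, limma adjusted p = 0.00819), but by 0.03 without a call in the authors' rescaled values (adjusted p = 0.713). Mgst3 differed by 0.18 (limma adjusted p = 0.141), while its second probe rose by 0.34 (adjusted p = 0.0197).

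Of 3 tested leukotriene and lipoxin receptor genes 2 fell. Ltb4r1, the high-affinity leukotriene B4 receptor gene, was detected on all 4 rat arrays and on 0 of 4 human arrays. Its fall is therefore given as a bound, 1.48-fold in the reported processing. The limma adjusted p of 0.000431 belongs to the fitted difference, not to the bound. Ltb4r1 passed the filter on dim probes through the rat arrays alone, so its call adds nothing to the detection counts. The size of the fall depends on the background correction. The log2 difference of Ltb4r1 was -0.18 with the authors' rescaled values and -0.23 without background correction, both called. Cysltr1, the receptor gene for cysteinyl leukotrienes, had a log2 intensity of 12.15, 12.04, 12.24 and 11.74 with rat IAPP and 11.49, 11.22, 11.54 and 11.24 with human IAPP. It fell by 0.67 (SE 0.13, limma adjusted p = 0.00162), and the call was lost against rat array 4 alone (-0.37, adjusted p = 0.0984). Fpr2, which encodes a formyl peptide receptor that also binds lipoxin A4, differed by -0.06 (limma adjusted p = 0.593) and by 0.29 with the authors' rescaled values (adjusted p = 0.00976).

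Of 5 tested lipoxygenase and other lipid mediator enzyme genes 3 fell and 1, Alox12b, rose (0.55, limma adjusted p = 0.00647), a call lost with median scaling (0.32, adjusted p = 0.187). Alox12b signals lay near background. Its difference was 0.16 with the authors' rescaled values and 0.15 without background correction, both called. Cyp4f18, which encodes a hydroxylase of leukotriene B4 in mouse neutrophils, fell by 0.87 (SE 0.18, limma adjusted p = 0.00273). Ephx1, an epoxide hydrolase gene, fell by 0.70 (SE 0.081, limma adjusted p = 7.85e-05), and Cyp4f16, a gene of the same cytochrome family as Cyp4f18, by 0.63 (SE 0.095, limma adjusted p = 0.000432). A second, dimmer Cyp4f16 probe gave -0.38 (limma adjusted p = 0.0339) with overlapping wells.

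The labelled cell type was checked against its markers. All 8 macrophage markers with a probe were detected on every array, among them Adgre1, Mertk and Fcgr1, which were called lower, and Cd14, which was called higher. Summed over the 8, the normalised intensity was 131759 to 138344 units in rat wells and 144953 to 147904 in human wells. Lyz2, above 60000 deposited units and so near the ceiling on all 8 arrays, made up 45.1% to 50.1% of these sums, and the sums without it were 65726 to 73432 and 78192 to 80600, so they describe the brightest markers more than the content of macrophages. Of the mast cell and basophil markers, cells that also express Ltc4s, 6 of 7 were undetected on all arrays and Mcpt8 was detected on 1 human array, with sums of 290 to 306 units in rat wells and 282 to 354 in human wells, mostly background. All 5 eosinophil and all 5 dendritic cell markers were undetected. Of the neutrophil markers 4 of 7 were undetected, S100a8 differed by -0.05 without a call and Elane was called higher by 0.44 while detected on 1 rat and 3 human arrays, with sums of 2298 to 2664 and 2052 to 3027 units. Of the platelet markers 3 of 5 were undetected and Pf4 was called lower, with sums of 3622 to 4147 units in rat wells and 2750 to 3049 in human wells, and the part of these markers in the results was not tested. Of the lymphocyte and fibroblast markers 4 of 5 each were undetected on all arrays.

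**Figure D4:**
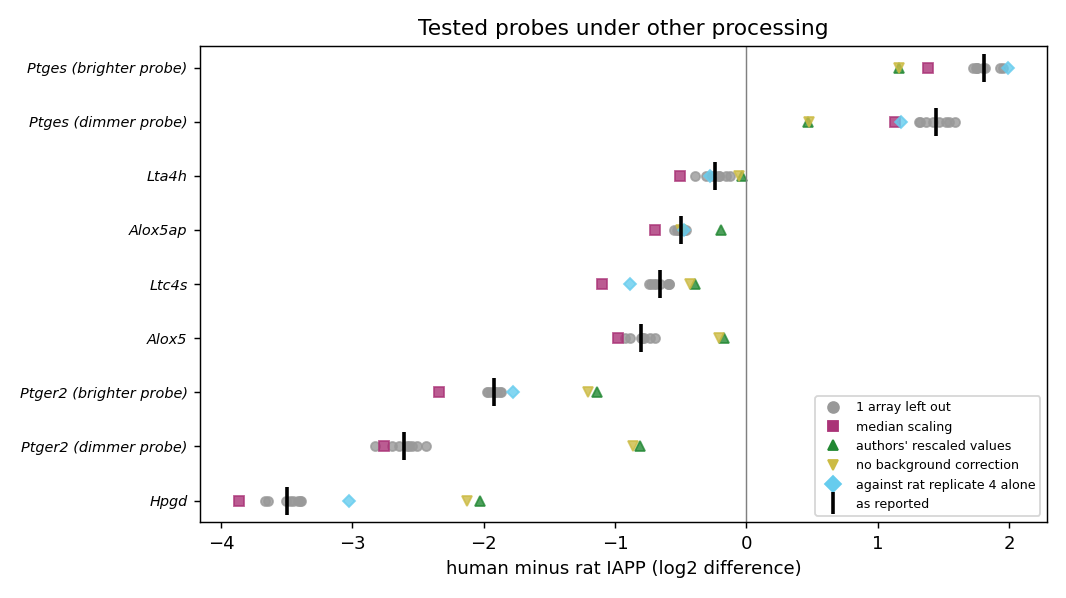
Log2 difference of human minus rat IAPP (horizontal axis) for the 9 tested probes of the 7 genes, as reported (black bars) and under other processing or with 1 array left out (symbols). Every symbol of the called probes stays on its side of 0, and values without background correction lie nearer to 0 (Hpgd at -2.12) for every called probe but that of Alox5ap, which stays at -0.50.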

How the data were processed

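The deposited signals are linear intensity values per probe, neither background-corrected nor normalised, per the file headers, each beside a deposited detection p-value. RNA was taken with a column kit and labelled by MessageAmp, per the labels' protocols; the scanner software, like the slide of each array, is not given in the sources used here. A second deposited table holds intensity values rescaled per array, each a straight line of the raw signal; it served as an alternative only. Its scale is linear, its columns are not centred (medians 352.6, 356.6, 353.8 and 361.1 for rat and 361.8, 362.9, 359.2 and 367.7 for human replicates 1 to 4), larger values mean more signal, and its method is unstated.

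Background was corrected by limma 3.58.1 in R 4.3.3 (normexp by detection p-values, offset 16), then values were quantile normalised and put on the log2 scale. The offset pulls differences of dim probes towards 0. Probes detected at p under 0.05 on at least 4 of 8 arrays were tested (11451 of 25697), with lmFit and eBayes, no covariates, and Benjamini-Hochberg adjustment over all of them; 6234 were called at adjusted p under 0.05. Each gene is represented by its brightest tested probe. The platform annotation gave 1 symbol for 23978 probes, several for 0 and none for 1719, and symbols of 23962 were updated by gene number in RefSeq (GRCm38.p6). The array table names no build, so coordinates are printed only for the 2 RefSeq windows.

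The 10 genes and the wider lists were chosen with earlier results of these data known. All 10 were described, and from each wider list the 3 tested genes with the smallest p. Other genes were named after their values were seen, to complete a count of 5 or fewer or as Pla2g4a and Ptger3. Median scaling, cyclic loess, other background settings and filters, a variance trend, array weights, a replicate block, arrays left out and averaged probes were tried. No 2 arrays were identical: log2 differences within the closest pair had an SD of 0.214. Arrays detected 42.1% to 47.6% of probes, and their number limits the precision. Simulated arrays of human against rat IAPP had 10873 tested probes, with changes set only in probes well above background. There the fit found 66% of 100 changes of 0.5 log2 units, 96% of 50 changes of 1 and 98% of 50 changes of 2. False calls made up 7.91% of its 177 calls, above the 5% aimed at. Changes were thus set in far fewer probes than the 6234 of 11451 called in the data. The rates describe that setting, and rates at the share of calls seen in the data were not tested.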

Additional observations from a re-analysis of the deposited data

Results flagged for a closer look

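Of 64 groups of 4 arrays checked (2 per probe named), 5 held an array whose gap to its nearest neighbour was a larger share of the group's range than Dixon's critical value for 4 samples allows, where chance alone gives about 5% of groups. All 5 are probes of the wider lists, not of the 10 chosen genes. With rat IAPP, Mgst1 reached a log2 intensity of 13.65 on array 2 (the others from 13.49 to 13.52). With human IAPP, Ephx1 reached 9.78 on array 1 (9.56 to 9.59), Cyp4f16 reached 8.87 on array 3 (8.63 to 8.67), Ltb4r1 lay at 5.42 on array 3 (5.96 to 6.04) and Dusp1 reached 15.31 on array 4 (15.16 to 15.18).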

How the results depend on the processing

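The call of Ptges as higher and of Hpgd, Ptger2, Alox5, Alox5ap and Ltc4s as lower was kept in every alternative in which the probe was tested, with the replicate block and with each array left out included. The count of higher genes among the 10 was 1 and became 2 without a filter on dim probes, since Ptgs2 was then tested; the count of lower genes was 5, but 6 without human replicate 1, which added Lta4h, and 4 against rat replicate 4 alone or over probes detected on all 8 arrays, where Alox5 was not tested. The wider lists had 10 higher genes, 3 with median scaling and 16 with the authors' rescaled values; the cause was not tested. Sign changed for Fpr2 (-0.06, but 0.29 with the authors' rescaled values and 0.025 with cyclic loess), Mgst3 (0.18, but -0.21 with median scaling) and Tbxa2r (-0.12, but 0.0015 with the authors' rescaled values), and of these 4 values only 0.29 was called. Of the other single-probe values under an alternative, 626 kept direction and side of the threshold, 14 gained a call and 11 lost it. Same-numbered rat and human arrays did not deviate together throughout (r of deviations from -0.11 to 0.17), and only replicate 3 matched its own number best, so the numbers were not taken as pairs. With the replicate block 5891 probes and 4075 genes were called, beside 6234 and 4330, and among the 10 genes 1 higher and 5 lower; Ptges had an adjusted p of 0.000556 and Hpgd of 1.03e-05 (limma). Median scaling lowered the median of all genes from -0.06 to -0.40. Signals near background limit the folds of Ptgs2, Alox5, Lta4h and the human wells of Hpgd. No slide is given, so no slide block was run.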

Other observations

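Genes known to respond to cyclic AMP, the messenger of the Ptger2 and Ptger4 receptors, were listed in 16 names, of which 8 were tested. With human IAPP 4 of the 8 were higher (Dusp1, Crem, Per1 and Rgs2) and 1 was lower (Thbs1). Of all tested genes 23.4% were called higher and 32% lower, 55.4% in either direction. The median log2 difference of the 8 was 0.43 beside -0.06 for all tested genes. With median scaling Per1 (adjusted p = 0.0765) and Rgs2 (0.0625) lost their calls, which left 2 higher. Dusp1, a MAP kinase phosphatase gene, rose 4.55-fold (log2 difference 2.18, SE 0.076, limma adjusted p = 4.70e-08). Crem, a transcription factor gene of the cyclic AMP response, rose 2.15-fold (SE 0.073, limma adjusted p = 2.46e-06), and 2 further probes rose by 1.42 and 0.76; the log2 difference of the first probe was 1.10, but 0.47 with the authors' rescaled values and 0.67 with median scaling. Thbs1, the thrombospondin gene, fell by 0.71 (SE 0.095, limma adjusted p = 0.000195). Many of these genes also respond to other signals.

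Human replicate 1 was the human array nearest to the rat mean for 36.2% of the 4330 called genes, more often than replicates 2 (24.9%), 3 (24.4%) and 4 (14.5%). Of the 6 called genes described here it was nearest for Ptges and Hpgd, replicate 3 for Ptger2, Alox5 and Alox5ap, and replicate 2 for Ltc4s. Human replicate 1 was also the human array that did not detect Ptgs2 on its better probe.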
